A study of Solanum lycopersicum with 4 samples.

Results

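The genes described here are the tomato (*Solanum lycopersicum*) genes of 20 kb or more, whose transcripts were counted by poly(A) RNA sequencing of the fourth leaf of plants aged 1 month. There were 2 libraries of *ddm1*, a double mutant of both tomato *DDM1* genes (*Slddm1a/Slddm1b*), and 2 of WT, and all plants were of cultivar M82 and kept under the same temperature and light period. Every gene on chromosomes 1 to 12 of the M82 assembly with a counted length of at least 20000 bp was taken, which gave 336 of 35479 genes (0.947%), out of 35821 genes in the whole table. Their length ranged from 20003 to 175400 bp with a median of 25277 bp, and 14 of them measured 50 kb or more. The other 35143 genes had a median length of 2113 bp. At the limit of the rule, the shortest long gene (20003 bp) had 685 and 591 *ddm1* counts against 422 and 390 WT counts, and the longest gene left out (19992 bp) had 658 and 711 against 582 and 565.

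DDM1 is a chromatin remodeler of the SNF2 family that gives DNA methyltransferases access to nucleosomal DNA, mainly in heterochromatin and at transposable elements (TEs). In plants, genes of such a span usually owe this length to introns, in which TEs are often inserted and kept methylated while the gene around them is transcribed. Each gene was counted as a single interval from its start to its end, so a read in an intron, or in a TE inside an intron on the same strand, adds to the count of the gene. No exon or TE annotation was used here, and the counts do not tell exonic from intronic reads. The nuclear identifiers are not paired with gene names in the tables used here, so 2 genes that rose and 2 that fell are named by identifier and the others by position.

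The long genes fell into 2 classes by their WT level, and every one of the 336 belonged to one of these classes. In 291 genes each WT library had at least 10 counts, with a median of 481 counts in WT replicate 1, 451 in WT replicate 2, 564 in *ddm1* replicate 1 and 504 in *ddm1* replicate 2. In the other 45 genes the 2 WT libraries together had at most 10 counts. Only 7 genes of the first class had 100 WT counts or fewer in sum, so few long genes lay between the classes. Among shorter genes 43.2% had at most 10 WT counts, against 13.4% of the long genes.

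The libraries held from 5462981 to 6887057 counts. Long genes took 2.87% and 2.41% of the counts of chromosomes 1 to 12 in *ddm1* replicates 1 and 2, and 2.83% and 2.82% in WT replicates 1 and 2. The *ddm1* libraries lay on either side of the WT libraries, which were nearly equal. The share averaged 2.64% ± 0.322 in *ddm1* against 2.83% ± 0.00105 in WT (mean ± SD, n = 2 each). The log2 ratio was -0.10 and the groups overlapped (two-sided exact permutation test, p = 1, where 2 against 2 libraries cannot give less than 0.333). Without *ddm1* replicate 2 the log2 ratio was 0.02, and without *ddm1* replicate 1 it was -0.23.

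This gap between the *ddm1* libraries followed gene length. Among the 289 long genes with at least 10 counts in every library, the normalized CPM (counts scaled to a common library size with TMM factors) was lower in *ddm1* replicate 2 than in replicate 1 for 264 genes (91.3%), with a median log2 ratio of -0.25. Between the WT libraries 162 of these genes (56.1%) were lower in replicate 2, with a median log2 ratio of -0.02. For 17797 shorter genes the median log2 ratio between the *ddm1* libraries was 0.01, and 48.3% were lower in replicate 2. Shorter genes weighted to the same WT counts had a median of -0.01, so the gap was not shared by genes of equal WT level. It grew with length, with medians of 0.08 for genes under 1 kb, -0.13 for 10 to 20 kb, -0.24 for 20 to 30 kb, -0.26 for 30 to 50 kb and -0.35 for the 6 genes of 50 kb or more. The cause was not tested. Against the mean of the WT libraries, the long genes had a median log2 ratio of 0.04 in *ddm1* replicate 1 and of -0.27 in *ddm1* replicate 2.

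**Figure D1:**
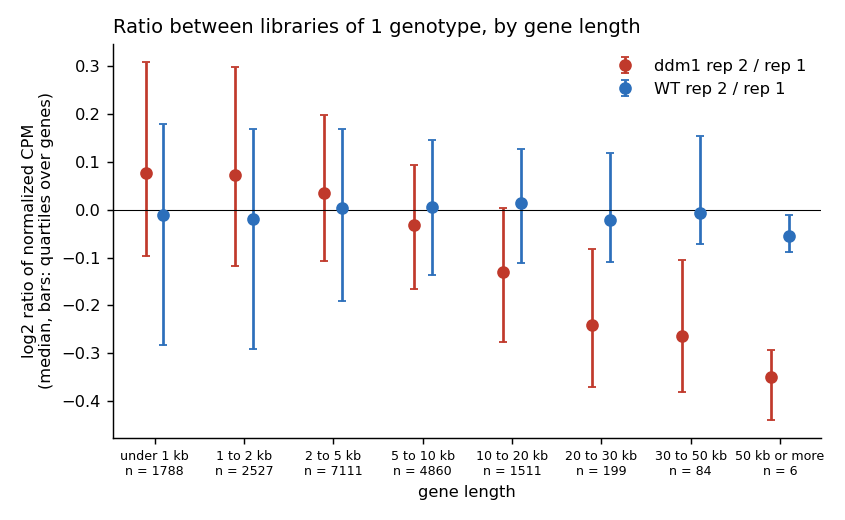
Log2 ratio of normalized CPM between the libraries of 1 genotype (y axis) by gene length (x axis), for genes with at least 10 counts in every library; points are medians and bars the quartiles over genes. The *ddm1* ratio falls from 0.08 under 1 kb to -0.35 at 50 kb or more, while the WT medians stay between -0.06 and 0.01.

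To find which long genes differed between genotypes, all genes were tested together with edgeR's quasi-likelihood test, and a gene was called at a Benjamini-Hochberg adjusted p-value under 0.05. Of the 336 long genes, 306 passed the filter on low counts. In *ddm1*, 37 of these were up-regulated (12.1%), where 25.3% of all tested genes were called in this direction, and 69 were down-regulated (22.5%), where 23.7% of all tested genes were. The other 200 were not called. An absolute log2 fold change over 1 was also reached by 19 up-regulated and 15 down-regulated long genes, where 16.5% and 13.1% of all tested genes passed both limits. The median log2 fold change was -0.09 over the 306 genes and 0.02 over all tested genes. In RNA from whole leaves, fewer cells of a type and less RNA per cell cannot be told apart. In normalized CPM, the lower *ddm1* library exceeded the higher WT library in 79 long genes (25.8%, against 40.1% of all tested genes) and the reverse held in 124 (40.5%, against 38.3%). These shares include 15 genes that passed the filter only through their *ddm1* counts, a selection that favours higher *ddm1* levels. Without *ddm1* replicate 2 there were 55 up-regulated and 46 down-regulated long genes, where 22.5% and 20.7% of all tested genes were called. Without *ddm1* replicate 1 there were 27 and 89, where 22.0% and 18.8% were, so the direction in which more long genes changed depended on the *ddm1* library. Without WT replicate 2 the counts were 23 and 42, where 17.1% and 15.5% of all tested genes were called. In these fits the genotype with a single library is assumed to vary like the other.

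**Figure D2:**
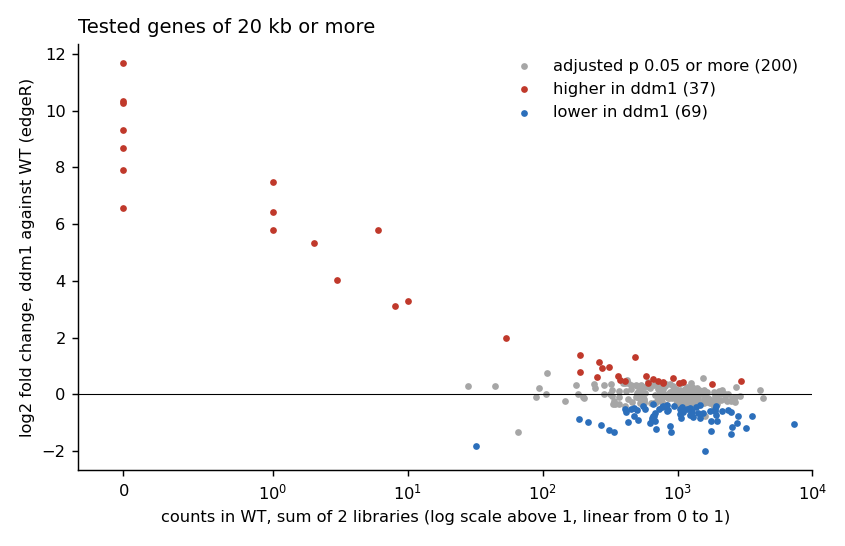
Log2 fold change in *ddm1* against WT (y axis) by the sum of the counts in the 2 WT libraries (x axis) for the 306 tested genes of 20 kb or more, 1 point per gene. The 15 genes with at most 10 WT counts passed the filter only through their *ddm1* counts and lie above the others. The genes with more WT counts lie between -1.99 and 1.99.

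Most long genes with WT expression stayed close to the WT level. Among the 291 genes with at least 10 counts in each WT library, a choice that uses no *ddm1* value, the log2 fold change ranged from -1.99 to 1.99 with a median of -0.11, and 232 genes (79.7%) lay within 1.5-fold of WT. In shorter genes chosen the same way 58.5% lay within 1.5-fold, and 66.0% did after weighting to the same WT counts. Genes just below the length limit were nearly as close to WT as the long genes. The median absolute log2 fold change was 0.59 under 1 kb, 0.35 at 5 to 10 kb and 0.30 at 10 to 20 kb. At 20 to 30 kb and at 30 to 50 kb it was 0.28. Of the 291 genes, 22 were up-regulated (7.56%), by a median of 1.48-fold, where 18.6% of shorter genes chosen the same way were called and 12.8% of those weighted to the same WT counts. A further 69 were down-regulated (23.7%), by a median of 1.61-fold, where 26.5% of the shorter and 34.6% of the weighted shorter genes were. Without *ddm1* replicate 1 these counts were 13 and 89 (shorter genes 16.2% and 21.1%), without *ddm1* replicate 2 they were 41 and 46 (16.2% and 23.5%), and without WT replicate 2 they were 8 and 42 (11.6% and 17.9%). An absolute log2 fold change over 1 was reached by 4 up-regulated (1.37%) and 15 down-regulated genes (5.15%), against 8.59% and 14.6% of shorter genes chosen the same way. Leaving out a single library gave 5 up-regulated and 11 to 23 down-regulated genes past this limit.

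The largest fall among the long genes that met the rule for naming was that of Solyc12g019110.3, on the plus strand of chromosome 12 from 9318075 to 9340157 (22083 bp). Its counts were 248 and 255 in *ddm1* against 712 and 887 in WT, so that both *ddm1* libraries lay well below both WT libraries. Its normalized CPM averaged 36.7 ± 0.868 in *ddm1* against 145.5 ± 30.4 in WT (mean ± SD, n = 2 each). It fell by 1.99 ± 0.16 (standard error) on the log2 scale (adjusted p = 0.000347 by edgeR). Solyc01g080810.3, on the plus strand of chromosome 1 from 74506170 to 74529109 (22940 bp), had 560 and 621 counts in *ddm1* against 1204 and 1301 in WT. The genotypes did not overlap here either, which the rule for naming required of both genes. Normalized CPM was 86.0 ± 2.56 in *ddm1* against 227.3 ± 24.98 in WT (mean ± SD, n = 2 each). It fell by 1.40 ± 0.12 (standard error) on the log2 scale (adjusted p = 0.000359 by edgeR). Leaving out any library kept both calls, and the log2 fold changes then ranged from -2.20 to -1.76 and from -1.52 to -1.29.

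The long gene with most counts lies on chromosome 3 from 32276256 to 32317350 (41095 bp). It was counted 2254 and 2110 times in *ddm1* against 3469 and 3853 times in WT, and was down-regulated 2.09-fold (adjusted p = 0.00168 by edgeR). The next in number of counts, on chromosome 2 from 50862313 to 50885221, had 3346 and 2209 counts in *ddm1* against 2024 and 2038 in WT. In normalized CPM, *ddm1* replicate 1 (502.8) lay above both WT libraries (352.5 and 383.8) and *ddm1* replicate 2 (312.2) below both. The gene was not called (adjusted p = 0.616 by edgeR). A similar spread was seen for the gene on chromosome 11 from 51908053 to 51939330, with 2857 and 1999 counts in *ddm1* against 2245 and 2061 in WT (adjusted p = 0.617 by edgeR). In both genes the *ddm1* libraries differed from each other by more than the genotype means did.

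Among the 22 up-regulated genes with WT expression, the largest rise was that of a gene on chromosome 6 from 37039707 to 37068385 (28679 bp), chosen after its values were seen. It had 130 and 132 counts in *ddm1* against 26 and 27 in WT, a 3.96-fold difference (adjusted p = 0.00141 by edgeR). The libraries of each genotype were close to each other in this gene. The other 3 with a log2 fold change over 1 lie on chromosomes 7, 4 and 10 and rose 2.60-fold, 2.47-fold and 2.21-fold. In normalized CPM all 4 kept both *ddm1* libraries above both WT libraries, which their choice as called genes favours. Of all tested genes 40.1% did so.

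Of the 14 genes of 50 kb or more, 6 had at least 10 counts in each WT library. Their counts ranged from 661 to 1497 in *ddm1* replicate 1, from 355 to 1307 in *ddm1* replicate 2, from 324 to 1164 in WT replicate 1 and from 281 to 1076 in WT replicate 2. Their log2 fold changes lay between -0.30 and 0.45, and 0 of the 6 were called by edgeR or DESeq2, with 0 at an unadjusted p-value under 0.05 in edgeR. Without *ddm1* replicate 1 edgeR called 1 of them down-regulated, and without *ddm1* replicate 2 it called 1 up-regulated. *ddm1* replicate 2 was below replicate 1 in each of them. The gene with the widest gap between the *ddm1* libraries, on chromosome 3 from 59241175 to 59293712, had 661 and 355 counts in *ddm1* against 324 and 281 in WT.

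**Figure D3:**
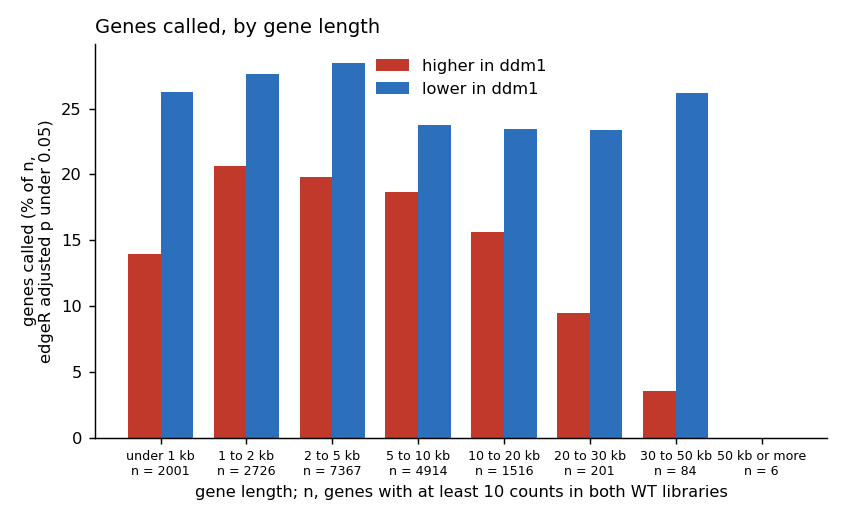
Share of genes called higher or lower in *ddm1* (y axis, percent of n) by gene length (x axis), for genes with at least 10 counts in both WT libraries. The up-regulated share is 13.9% under 1 kb, 20.6% at 1 to 2 kb and 15.6% at 10 to 20 kb. It is 9.45% at 20 to 30 kb and 3.57% at 30 to 50 kb. The down-regulated share lies between 23.4% and 28.5% in every class but that of 50 kb or more, where 0 of 6 genes were called. Without *ddm1* replicate 2 the up-regulated shares at 20 to 30 kb and 30 to 50 kb were higher, and that at 1 to 2 kb was lower. Without *ddm1* replicate 1 the down-regulated shares at 20 to 30 kb and 30 to 50 kb were higher and those under 20 kb lower. The down-regulated shares of every class up to 50 kb were lower without *ddm1* replicate 2.

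Long genes have high counts even at a low level per kb, so they were set beside shorter genes of the same WT counts. In 10 strata of WT counts, with the shorter genes weighted to the strata of the 306 tested long genes, 12.1% of the long and 15.04% of the shorter genes were up-regulated, and 22.5% of the long and 33.3% of the shorter genes were down-regulated. The median log2 fold change was -0.09 in long and -0.14 in shorter genes, a difference of 0.05. Taken from each pair of a *ddm1* and a WT library, this difference ran from -0.10 to 0.20, so it was within the spread between libraries. The lower share of down-regulated long genes rested on *ddm1* replicate 1: without it, 29.2% of the long and 27.8% of the matched shorter genes were down-regulated, while without *ddm1* replicate 2 the shares were 15.1% and 29.4%. The up-regulated share also changed sides, at 8.85% against 12.4% without *ddm1* replicate 1 and 18.0% against 13.2% without *ddm1* replicate 2. These up-regulated shares include genes that passed the filter only through their *ddm1* counts, with all libraries 15 of the 306 long genes, each of them called. With at least 10 counts in both WT libraries, 7.56% of the long and 12.8% of the matched shorter genes were up-regulated. Genes are not replicates, and all these shares were compared without a test.

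**Figure D4:**
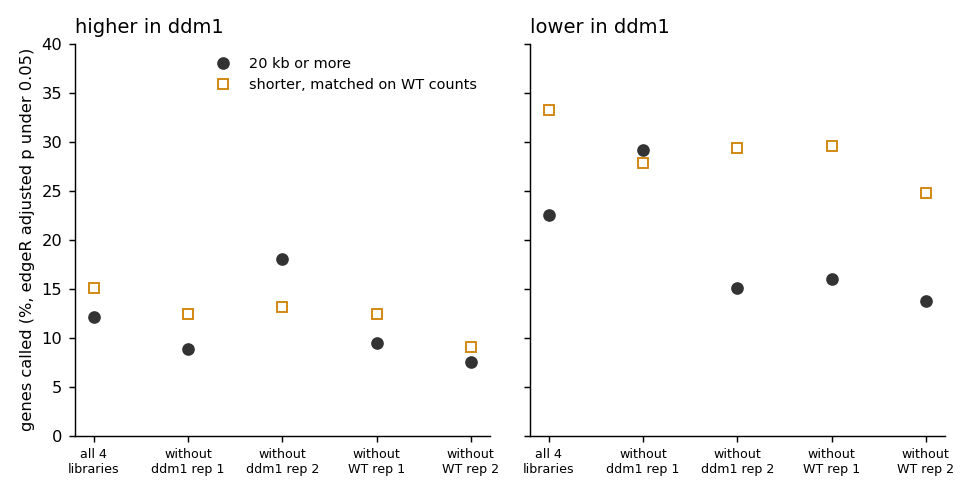
Share of genes called higher (left) or lower (right) in *ddm1* (y axis, percent) among genes of 20 kb or more and shorter genes matched on WT counts, with all 4 libraries and with each library left out (x axis). The down-regulated share of long genes lies below that of matched genes in each setting but the one without *ddm1* replicate 1, where the shares are 29.2% and 27.8%.

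Among classes of 100 or more WT counts, the gap in down-regulated shares was widest at the highest counts. With over 1000 WT counts in sum, 35 of 138 long genes were down-regulated (25.4%) and 4 up-regulated (2.90%), against 45.2% and 5.78% of 3358 shorter genes. In the next lower class, of up to 1000 WT counts, 30 of 127 long genes were down-regulated (23.6%) and 12 up-regulated (9.45%), against 23.9% and 19.8% of 7979 shorter genes. Without *ddm1* replicate 1 the order at over 1000 WT counts reversed, with 43.5% of the long and 38.7% of the shorter genes down-regulated, while without *ddm1* replicate 2 the shares were 19.6% and 39.3%. In the class of up to 1000 WT counts the up-regulated share of long genes moved from 5.51% without *ddm1* replicate 1 to 20.5% without *ddm1* replicate 2, where the shorter genes stood at 16.6% in both. In the class of over 1000 counts the long genes had a median of 28.6 counts per kb in a WT library and the shorter genes 140.8. The reads were freed of PCR duplicates before counting, and no long gene exceeded 0.146 counts per bp in any library, where shorter genes reached 1.34. The part of this density in the difference was not tested. Matched on WT counts per kb instead, which sets long genes beside shorter genes of far fewer counts, 22.5% of the long and 16.5% of the shorter genes were down-regulated and 12.1% and 32.3% up-regulated, so the direction for down-regulation reversed.

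The 45 long genes with at most 10 WT counts were counted mainly in *ddm1*, in a class whose limit keeps WT counts low. In WT replicates 1 and 2 they had 32 and 16 counts in all, and in *ddm1* replicates 1 and 2 they had 1795 and 1605. Shorter genes of this class leaned the same way, with 7656 and 5435 counts in WT and 123567 and 114090 in *ddm1*. Of the 45 long genes, 17 had no count in *ddm1*. A further 15 passed the filter, which they could do only through their *ddm1* counts, and were up-regulated. Of 1448 shorter genes that passed with at most 10 WT counts, 1414 were up-regulated (97.7%). Over all such genes, tested or not, these are 33.3% of 45 long genes and 9.30% of 15198 shorter genes. Per length the order was the other way: at least 5 counts per kb in the mean *ddm1* library were reached by 5 long genes (11.1%) and by 16.8% of the shorter genes. The called long genes had a median of 2.43 counts per kb in a *ddm1* library and the called shorter genes 24.9. A long gene can therefore reach the call at a lower level per kb, and the shares of called genes were not tested against each other.

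**Figure D5:**
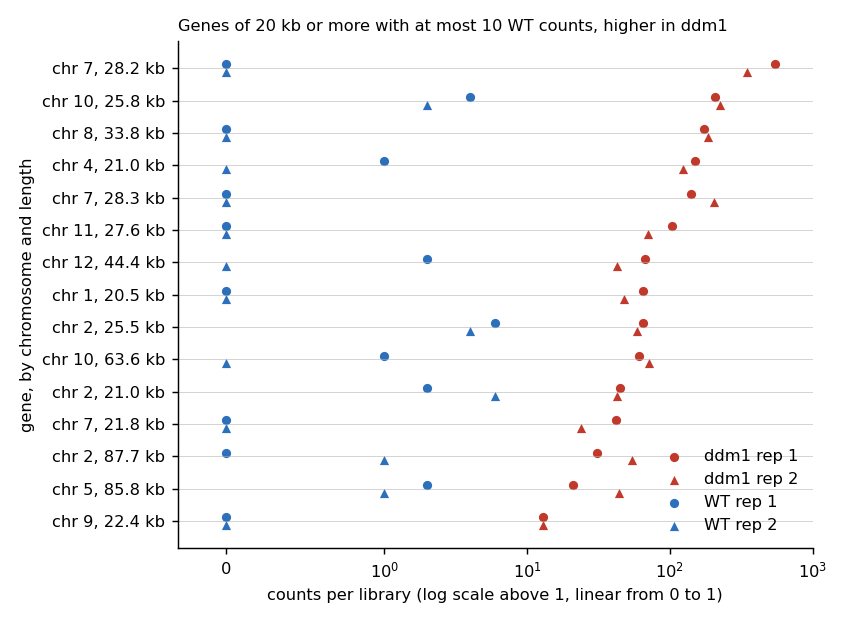
Counts per library (x axis) of the 15 genes of 20 kb or more with at most 10 WT counts in sum that were called higher in *ddm1*, 1 row per gene, labelled by chromosome and length. Both *ddm1* libraries, with 13 to 545 counts, lie above both WT libraries, with 0 to 6 counts, in every gene. The choice of these genes, by low WT counts and a call, largely sets this order.

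The 15 genes lie on 10 chromosomes, and their counts ranged from 13 to 545 in *ddm1* replicate 1, from 13 to 350 in *ddm1* replicate 2 and from 0 to 6 in each WT library. Both WT libraries were at 0 in 7 of them. The largest rise was that of Solyc07g041027.1, on the plus strand of chromosome 7 from 51734275 to 51762424 (28150 bp), which had 545 and 350 counts in *ddm1* against 0 in both WT libraries. Set against 3 counts per WT library, about the upper 95% limit for a count of 0, its *ddm1* level was at least 120.8-fold higher (adjusted p = 0.000333 by edgeR). Its *ddm1* libraries differed in level, with a normalized CPM of 81.9 in replicate 1 and 49.5 in replicate 2. Solyc08g022025.1, on the plus strand of chromosome 8 from 36456221 to 36489970 (33750 bp), had 174 and 186 counts in *ddm1* against 0 in both WT libraries. It was at least 48.2-fold higher (adjusted p = 0.000267 by edgeR), with a normalized CPM of 26.1 and 26.3 in the *ddm1* libraries. For the other 5 genes at 0 in WT the bound ran from 3.49-fold to 45.7-fold. These bounds cover counting error only. All 15 genes passed the filter only through their *ddm1* counts, and every tested long gene of this class was called. The p-values given for them therefore add little to the counts.

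In 5 genes the WT libraries had 1 to 3 counts in sum. The gene on chromosome 4 from 28576766 to 28597729 had 149 and 123 counts in *ddm1* against 1 and 0 in WT, a ratio of 218.9 with an exact 95% interval from 39.0 to 8679. The longest tested gene, on chromosome 2 from 24605533 to 24693228 (87696 bp), had 31 and 54 counts in *ddm1* against 0 and 1 in WT, a ratio of 68.4 (exact 95% interval 11.95 to 2734). Its *ddm1* level was low for its length, and a shorter gene on the opposite strand lies inside it. The gene on chromosome 10 from 31796551 to 31860106 (63556 bp) had 61 and 71 counts in *ddm1* against 1 and 0 in WT. The gene on chromosome 5 from 63126648 to 63212440 (85793 bp) had 21 and 44 counts against 2 and 1, and a gene on the opposite strand also lies inside it. These last 3 are the called genes of 50 kb or more, and all were near 0 in WT. The remaining 3 of the 15 genes had 6 to 10 WT counts in sum, of which the gene on chromosome 10 from 20772879 to 20798703 had the most *ddm1* counts, 207 and 223 against 4 and 2 in WT (log2 difference 5.80 ± 0.34 standard error, adjusted p = 0.000158 by edgeR). Genes of this class passed the filter only through their *ddm1* counts. A call, with all libraries or with 1 left out, was therefore nearly set by that filter.

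The longest gene of all, on chromosome 7 from 6103025 to 6278424 (175400 bp), was among the 30 long genes that did not pass the filter. It had 9 and 5 counts in *ddm1* against 2 and 0 in WT. No gene of these 30 had more than 16 *ddm1* counts in sum, and 14 had no count in any library.

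In tomato, TEs are concentrated where genes are sparse, and the long genes were placed by the number of genes around them. Of the 336 long genes, 159 (47.3%) had at most 46 annotated genes within 500 kb of their midpoint, here called gene-poor, against 25.1% of the shorter genes. Of the 45 long genes near 0 in WT, 31 (68.9%) were gene-poor, against 41.3% of the shorter genes near 0 in WT. Of the 15 that were called 10 were gene-poor (66.7%), about the share in the class as a whole, against 35.9% of the called shorter genes. Among tested long genes, 18 of 138 gene-poor genes were up-regulated (13.0%) and 34 down-regulated (24.6%), against 19 (11.3%) and 35 (20.8%) of 168 other long genes. Of the up-regulated ones, 10 of the 18 and 5 of the 19 were near 0 in WT. These passed the filter only through their *ddm1* counts, so the 2 up-regulated shares rest in part on that selection. In gene-poor shorter genes 30.3% were up-regulated, 507 of these 900 near 0 in WT, and 21.9% down-regulated. After weighting gene-poor shorter genes to the same WT counts, these shares were 16.0% and 32.7%, so the order of long and shorter genes in down-regulation turned. In both groups of long genes, leaving out *ddm1* replicate 1 raised the down-regulated share and lowered the up-regulated share. Leaving out *ddm1* replicate 2 did the reverse in both.

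The long genes were spread over all 12 chromosomes, from 0.555% of the genes on chromosome 5 to 1.27% on chromosome 4, and 168 of 336 lay on the plus strand. A single long gene overlapped another annotated gene on its own strand and none contained one, so sharing of reads with a neighbour on the same strand touches few of these values. An annotated gene on the opposite strand overlapped 26 long genes, of which 21 were tested, 3 up-regulated (14.3%) and 1 down-regulated (4.76%), against 12.1% and 22.5% of all tested long genes. All 3 up-regulated ones were near 0 in WT and passed the filter only through their *ddm1* counts. The identifiers of 48 long genes carry model version 1, a split made after the values were seen. Of these, 37 had at most 10 WT counts (77.1%), close to the 73.2% of shorter genes of version 1, against 8 of the 288 long genes with a later version (2.78%). Of the 15 called long genes near 0 in WT 9 carry version 1 (60.0%), against 45.4% of 1414 called shorter genes. Both shares lie below those of all genes near 0 in WT, 82.2% of the long and 55.0% of the shorter ones. The set holds 9 Solyc00g identifiers, with 18 counts over the 4 libraries together, and 0 identifiers with a copy suffix.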

How the data were processed

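The authors used Trimmomatic 0.38 for trimming, HISAT2 for mapping to the M82 V1.0 assembly and featureCounts 2.0.0 for counting. They deposited an unnormalized count for each gene in each library. The file header shows PCR duplicate removal, reverse-stranded counting of 1 interval per gene, a mapping quality of at least 30, and reads overlapping several genes counted for each.

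The counts were filtered by filterByExpr at a minimum count of 10, scaled with TMM and tested on genotype with edgeR 4.0.16 (glmQLFit, glmQLFTest; R 4.3.3), with Benjamini-Hochberg adjustment over 21289 genes. Shorter genes were matched in 10 strata of WT counts set by the long genes. Alternatives were DESeq2 1.42.0, other scalings, filters, thresholds, length minimums and matchings, a replicate block and each library left out. The fit was tested on simulated data. Replicates within a genotype differed by more than sampling noise (chi-square per degree of freedom 5.21 in *ddm1*, 4.40 in WT). The labels do not say whether libraries came from separate plants, while the study's methods call them independent biological replicates. With 2 libraries per genotype, p-values measure only the spread between these.

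The long genes, lists and settings were chosen with earlier results of these data known. Identifiers are given for 2 called long genes that rose most and 2 that fell most, of those averaging at least 3 in log2 CPM, with no overlap between genotypes and no same-strand neighbour overlapping. The longest gene tested, the one with most counts, and the one with most counts among genes at 3 or fewer in each WT library (again Solyc07g041027.1) were to be described by position; other genes described by position were chosen after their values were seen. The table of gene names used here has no match for the nuclear identifiers, so no sequence, pathway list or leaf marker was examined. Columns of the table that hold no sample: gene positions and length. Batches are not given in the sources used here.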

Additional observations from a re-analysis of the deposited data

Results flagged for a closer look

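The 30 long genes that did not pass the filter on low counts were counted among the 45 genes near 0 in WT but have no test of their own, and 16 of them had a count. Together they took 9.998 and 7.42 CPM (counts scaled to library size) in the *ddm1* libraries and 2.41 and 0.367 in WT. They averaged 8.71 ± 1.83 in *ddm1* against 1.39 ± 1.44 in the WT control (mean ± SD, n = 2 each), with both *ddm1* libraries above both WT libraries. These rest on 66 and 51 *ddm1* counts against 14 and 2 in WT. The 13750 untested shorter genes near 0 in WT were also higher in *ddm1*, with 18674 and 17876 counts against 5443 and 3972.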

How the results depend on the processing

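Alternatives marked as added were chosen once the data had been seen. The median log2 fold change of the long genes and the log2 ratio of their share of counts moved by less than the spread between library pairs under each of their 15 and 10 alternatives, and the 4 named genes kept their direction and call in each fit that could include them (adjusted p at most 0.00373, edgeR or DESeq2). The spread between library pairs itself holds the gap between the *ddm1* libraries, so leaving out 1 of these was unlikely to exceed it. Without *ddm1* replicate 2 the median changed sign from -0.09 to 0.06, and the log2 ratio of the share from -0.10 to 0.02. The causes of the movements below were not tested unless the construction shows them.

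Counts of long genes moved by construction with the length minimum and the threshold. Against 37 up-regulated and 69 down-regulated genes there were 98 and 167 with a 15 kb minimum, 8 and 22 with 30 kb, 22 and 37 at an adjusted p-value under 0.01 and 19 and 15 with an absolute log2 fold change over 1. With 10 counts in both WT libraries (added) 22 were up-regulated. Of the genes near 0 in WT (added), 34 were called at 15 kb and 5 at 30 kb, against 15. With 10 counts required in every library, no such gene is left. Genes near 0 in WT pass the filter only through their *ddm1* counts, so how many were called in a setting says little.

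Matched on WT counts per kb, the difference of long minus shorter genes was -0.29 in median log2 fold change (0.05 as reported), -20.2 percentage points in the up-regulated share (-2.94) and, reversed, 6.06 points in the down-regulated share (-10.7). The down-regulated difference also reversed without *ddm1* replicate 1, to 1.37 points, and the up-regulated one moved to 4.84 points without *ddm1* replicate 2. With each library left out, the ranges were 23 to 55 up-regulated and 42 to 89 down-regulated genes, 14 to 15 genes near 0 in WT, -0.21 to 0.06 for the median, -0.07 to 0.19 for its matched difference, -3.56 to 4.84 and -14.3 to 1.37 points for the shares, and -0.23 to 0.02 for the share of counts.

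The median log2 ratio of *ddm1* replicate 2 to replicate 1 (-0.25, added) was -0.22 with RLE factors, -0.21 at 15 kb and -0.28 at 30 kb.

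Replicate numbers are those of the sample titles, while the table's columns number the *ddm1* libraries 2 and 3, so same-numbered libraries share only a title number. Their deviations from the genotype mean correlated at 0.00202. With the replicate number as a block, 44 long genes were up-regulated and 68 down-regulated (24.8% and 22.7% of all tested genes), and the matched differences were 0.05 in the median and -0.48 and -10.1 points in the shares. At 5462981 to 6887057 counts per library, a gene near 0 in WT gives only a bound or a wide interval.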
